A study of Mus musculus with 2 samples.

Results

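Conventional natural killer (NK) cells of the mouse adrenal gland were picked from 2 single-cell RNA libraries by their own transcripts. The rule worked on unique molecular identifiers (UMIs), each of which stands for 1 captured RNA molecule, in barcodes with at least 200 genes and at most 15% mitochondrial UMIs. A barcode entered the NK gate with 2 or more UMIs of Ncr1, Klre1 and Klrb1c together, at most 1 UMI of Cd3d, Cd3e and Cd3g, at most 2 UMIs of C1qa, C1qb and C1qc, and 0 UMIs of Cd79a. Within the gate, a cell was a conventional NK cell if its first sum, over Itga2, Eomes, Klra4 and Klra8, was 2 or more and larger than its second sum, over Itga1, Cd160 and Xcl1. This gave 374 conventional NK cells among 6319 kept barcodes, 266 of 3817 in the female library and 108 of 2502 in the male library.

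Both libraries held live CD45+ cells, the leukocytes of the tissue, sorted after enzymatic digestion of adrenal glands from C57BL/6 J mice aged 7 weeks. There was 1 library from females and 1 from males, and how many animals went into each was not given in the sources used here. No allele, agent or treatment is named for either group. Without replicate libraries no test was made and no p-value is given, and all 95% intervals and all limits set by a count of 0 cover counting error only.

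NK cells are cytotoxic innate lymphocytes that kill by releasing perforin and granzymes and that read MHC class I on other cells through receptors of the Ly49 and NKG2 families. Conventional NK cells depend on the transcription factor Eomes, carry the integrin CD49b (Itga2) and Ly49 receptors, and circulate between blood and tissues. Group 1 innate lymphoid cells (ILC1) share the receptors of the gate but are tissue-resident and carry CD49a (Itga1), which is why cells of the gate in which the second sum led were the closest comparison.

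The cells held 1091819 UMIs in the female and 451519 UMIs in the male library, with a median of 3507 and 4053 UMIs and 1515.5 and 1715.5 genes per cell. The comparison groups were the gate cells in which the second sum led (374 female and 154 male, called second-sum cells here, with a median of 4558 and 5387 UMIs) and T cells, defined by 2 or more UMIs of Cd3d, Cd3e and Cd3g (941 and 474). B cells (518 and 265) served as a background for free RNA. Another 36 female and 13 male gate cells belonged to neither side. Of all barcodes, 2 sequences occurred in both libraries and 0 of them were conventional NK cells. Levels are UMI sums per library and group, scaled to counts per 1000000 UMIs of that group (CPM).

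Conventional NK cells were 6.97% of kept female barcodes (95% interval 6.18 to 7.82) and 4.32% of kept male barcodes (3.55 to 5.19), a difference of 2.65 percentage points (1.49 to 3.77). Relative to the NK gate the shares were the same to 3 digits, 39.3% of 676 female cells (35.6 to 43.1) and 39.3% of 275 male cells (33.5 to 45.3), with an interval of the difference from -6.83 to 6.79 points. The whole gate made up 17.7% of kept barcodes in females and 11.0% in males. Whether these shares hold across animals was not tested, since each sex had 1 library.

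The rule's own sums spread widely. The median first sum was 10 UMIs in female and 12 in male conventional NK cells, the highest 36 and 46, and the median second sum was 1 in both. Just inside the threshold, 13 female and 8 male cells had a first sum of exactly 2, and in 18 and 5 cells the first sum led by 1 UMI. Just outside it, 8 female gate cells and 1 male gate cell had a first sum of 1 ahead of the second, 7 and 4 had equal sums of 2 or more, and in 5 and 4 the second sum led by 1 over a first sum of 2 or more. The border between the groups was not empty on its far side either: 111 of the 374 female and 34 of the 154 male second-sum cells had a first sum of 2 or more.

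**Figure D1:**
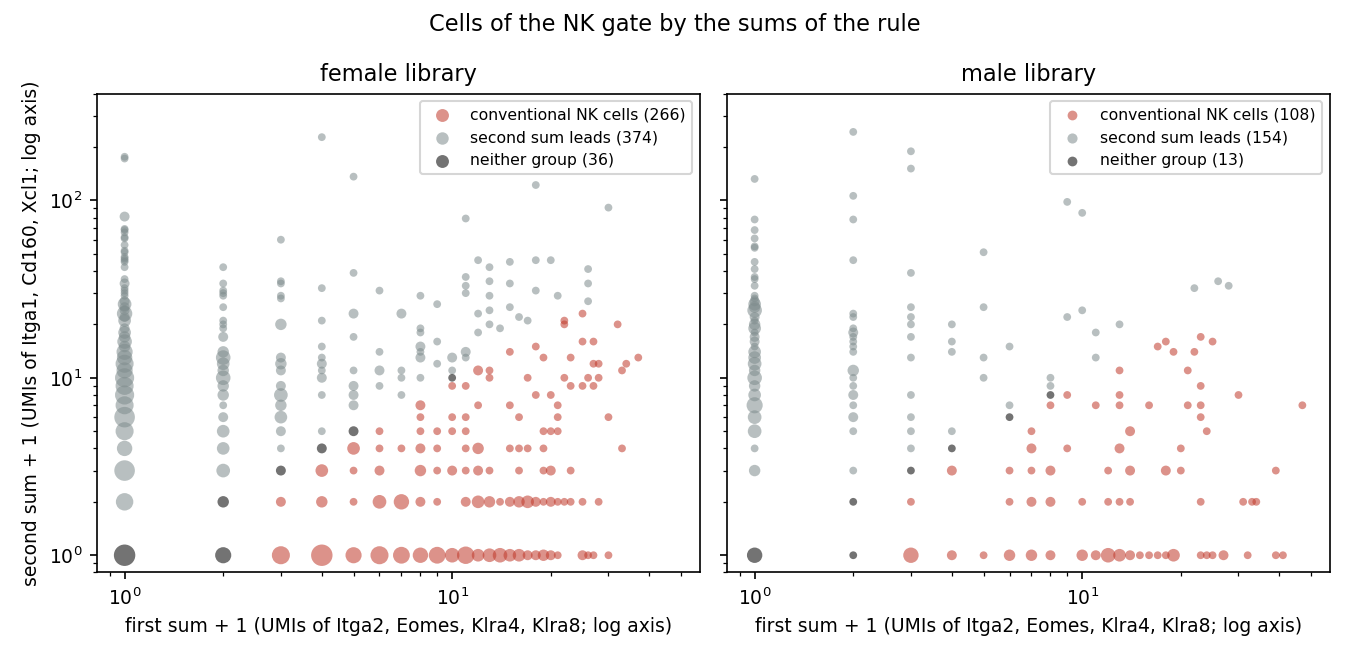
Sums of the rule in single cells of the NK gate, first sum + 1 on the x axis and second sum + 1 on the y axis, in UMIs on log axes, for each library; a larger point stands for more cells with the same pair of sums. Conventional NK cells lie along the bottom and below the diagonal, and cells with high values of both sums lie on each side of it.

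Because the rule picks on these genes, their levels in the chosen cells say nothing by themselves. Each of the first-sum genes was therefore read in cells chosen without it. Eomes, left out of its own selection, was detected in 53.9% of 243 female cells (47.4 to 60.3) and 65.3% of 98 male cells (55.0 to 74.6), against 25.6% and 17.7% of the cells in which the second sum then led. Klra4 (the receptor Ly49D) was detected in 59.6% and 65.6% of cells chosen without it, against 20.1% and 13.6%. Klra8 (Ly49H, a receptor for a cytomegalovirus protein) was detected in 64.7% and 67.0%, against 28.7% and 20.0%. Itga2 was at 161 and 229 CPM in cells chosen without it, against 53.3 and 72.9 CPM where the second sum led. In T cells these genes were detected in 4.46% to 8.50% of cells and in B cells in 0.772% or fewer. The genes of the label thus appeared together in the same cells also where the gene read had not chosen them, within the limits of a gate and a second sum that stayed the same.

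The label also names perforin (Prf1) and granzyme A (Gzma), which the rule did not use. Prf1 was at 844 CPM in female and 1009.9 CPM in male conventional NK cells, against 57.1 and 62.0 CPM in T cells. Gzma was at 10878 and 9942 CPM, against 1388 and 823 CPM in T cells. To compare shares of cells at 1 depth, each cell was thinned to 1000 UMIs, which left out 3 female cells and 1 male cell. Gzma was then detected in 91.3% (87.2 to 94.4) and 96.3% (90.7 to 99.0) of conventional NK cells, in 17.8% and 11.2% of T cells and in 3.59% and 0.794% of B cells. Prf1 was detected in 59.7% (53.5 to 65.7) and 61.7% (51.8 to 70.9), in 4.49% and 3.65% of T cells and in 0.199% and 0.397% of B cells. Without thinning the shares in conventional NK cells were 94.0% and 98.1% for Gzma and 80.8% and 93.5% for Prf1. Both transcripts were found in the same cell in 58.2% and 60.7% after thinning and in 79.3% and 91.7% without it.

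Markers of other cell types differed in level between lists. Over 10 T cell genes outside the rule, conventional NK cells held 58.6 and 64.2 CPM in all, against 1564 and 1523 CPM in T cells, with UMIs of 5 of the genes in the female and 3 in the male library. Cd4, Cd6, Cd8b1, Camk4 and Dapl1 were at 0 in both libraries. Over 8 B cell genes the sum was 206 and 139.5 CPM, against 45777 and 41959 CPM in B cells, with Ms4a1 and Ebf1 at 0. Over 10 macrophage genes it was 910.4 CPM in the female and 412 CPM in the male library, with Mertk at 0, against 993 and 492 CPM in second-sum cells, which passed the same limit on C1q. Over 6 neutrophil and monocyte genes the sum was 604 and 658 CPM, against 323 and 539 CPM in second-sum cells. Of this, 436 and 613 CPM were Ly6c2, which is also on the list of late maturation genes of NK cells. Over 8 genes of ILC2 and mast cells the sum was 83.3 and 102 CPM, against 113 and 138 CPM. Gata3 alone made up 63.2 and 95.2 CPM of it in conventional NK cells. Over 5 genes of adrenal medulla cells the sum was 0 and 2.21 CPM, and over 8 genes of cortical cells, 28.4 and 4.43 CPM.

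The main comparison asked how conventional NK cells differed from the second-sum cells of the same gate. The rule split the cells on this axis, so every value of the comparison is a description. A gene was called when its ratio of (CPM + 10) was 2-fold or more in the same direction in both libraries, among genes with 50 UMIs or more in all and outside the 17 genes of the rule. Of 7350 genes, 49 were called higher in conventional NK cells (0.667%) and 56 lower (0.762%), and the median log2 ratio of all genes was 0.02. Higher were 10 of 15 tested genes of late maturation, with Cma1, S1pr5, Zeb2, Klf2, Klrg1 and Itgam among the leading genes. Of the granule genes Prf1 and Gzma were higher, and as many others of that list were lower. Lower were 13 of 19 tested genes of tissue residency and ILC1, and Il7r, Cxcr6, Tmem176a, Tmem176b, Inpp4b and Gzmc were among the leading genes.

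**Figure D2:**
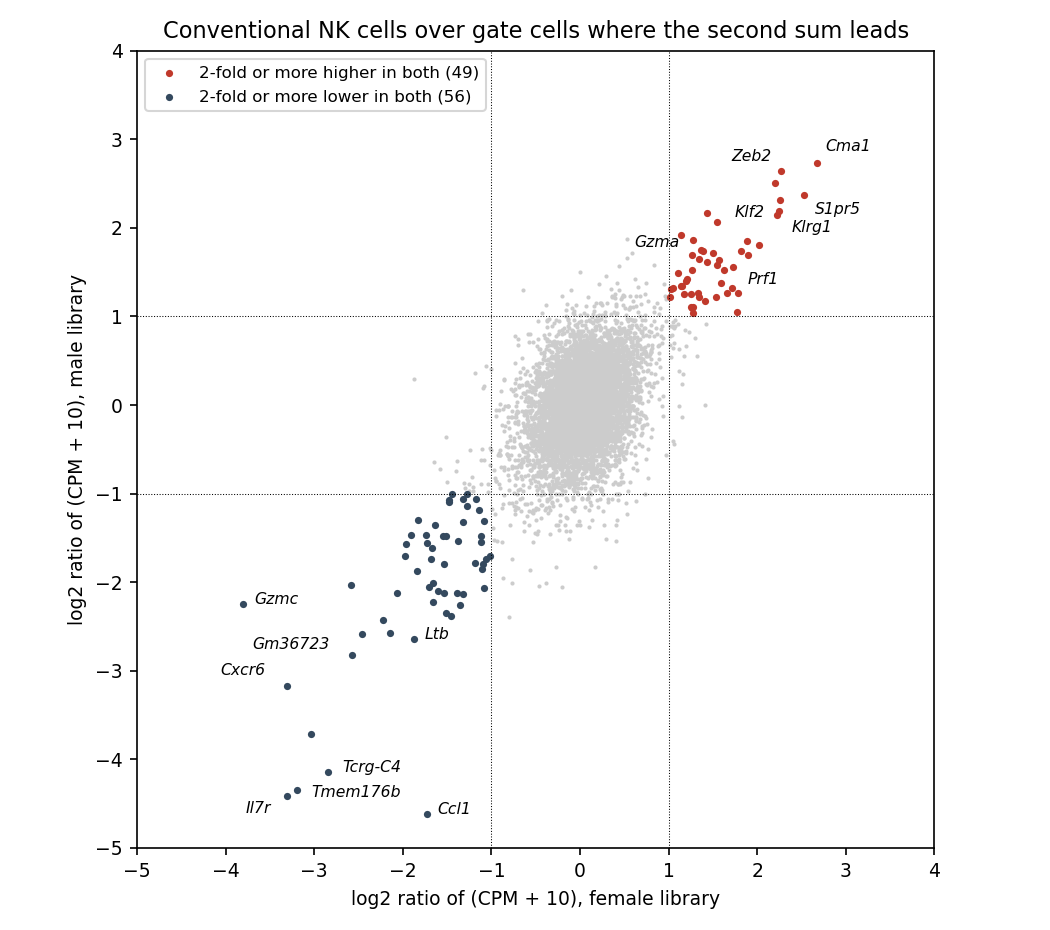
Log2 ratio of (CPM + 10) of conventional NK cells over gate cells where the second sum led, female library on the x axis and male library on the y axis, for 7350 genes outside the rule; dotted lines mark 2-fold. The 49 red genes were higher and the 56 dark genes lower by 2-fold or more in both libraries, with Cma1 at one end and Il7r, Tmem176b, Tcrg-C4 and Gzmc at the other.

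Late maturation had the most genes on the higher side. Of its 15 genes, all tested, 10 were higher and 1 lower, with a median log2 ratio of 1.48. Cma1, which encodes mast cell chymase, was at 185 and 213 CPM in conventional NK cells and 20.5 and 23.5 CPM in second-sum cells, a ratio of 9.04 (6.39 to 13.1) in the female and 9.05 (5.60 to 15.3) in the male library. S1pr5, the sphingosine-1-phosphate receptor through which NK cells leave marrow and lymph nodes, was at 105 and 111 CPM against 9.97 and 13.4 CPM. Zeb2, a transcription factor of terminal NK cell maturation, was at 446 and 449.6 CPM against 84.5 and 63.8 CPM, ratios of 5.28 (4.41 to 6.35) and 7.05 (5.23 to 9.63). In all 3 genes the intervals of the ratios lay above 4 in both libraries.

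Klrg1, an inhibitory receptor of mature NK cells, was at 120.0 and 153 CPM against 17.3 and 25.7 CPM. Itgam, which encodes CD11b, was at 154 and 188 CPM against 25.2 and 34.7 CPM, and its reads could also come from a gene model that overlaps it on the same strand. Klf2, a factor that sustains S1pr1 in lymphocytes, was at 867 and 704 CPM against 174 and 134 CPM. Cx3cr1, the fractalkine receptor, was lower in level, at 55.0 and 50.9 CPM against 11.0 and 11.2 CPM. Its gene model overlaps Gorasp1, Csrnp1 and Xirp1 on the same strand, and its reads could also come from these. Gzma, Emp3 and Lgals1 were the other members of the list called higher. The exception was S100a4, at 173 and 321 CPM against 677 and 909 CPM, with 61.4% of the male UMIs in 5 cells. Spn, Itgb2, Ly6c2 and S100a6 did not reach 2-fold in both libraries.

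Of 16 tested genes of homing and egress, 5 were higher and 1 lower, with a median log2 ratio of 0.64. Beside S1pr5, Klf2 and Cx3cr1, the higher genes included Itga4, an integrin chain, at 528 and 631 CPM against 153 and 247 CPM. Gpr183, an oxysterol receptor, was the gene called lower. S1pr1 was low in both groups, at 18.3 and 28.8 CPM against 8.40 and 4.48 CPM, and was not called. Ccr2 stood at 441 and 580.3 CPM against 336 and 275 CPM and reached 2-fold in the male library alone.

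Genes of tissue residency and ILC1 were on the other side, with 13 of 19 tested genes lower, 0 higher and a median log2 ratio of -1.85. Cxcr6, a chemokine receptor of resident lymphocytes, was at 6.41 and 11.1 CPM in conventional NK cells and 153 and 179 CPM in second-sum cells. Il7r, the interleukin-7 receptor, was at 16.5 CPM against 252 CPM in the female library. In the male library it had 0 UMIs in conventional NK cells and was at 204 CPM in second-sum cells. That is 30.7-fold lower when the 0 is set to a floor of 3 counts over the group, and the interval of the ratio ended at 0.0405. Tmem176b was at 11.9 and 4.43 CPM against 191 and 284 CPM, and its neighbour in the genome Tmem176a at 7.33 and 4.43 CPM against 132 and 179 CPM. Inpp4b, a phosphoinositide phosphatase, was at 24.7 and 28.8 CPM against 182 and 223 CPM, and Cd200r1, an inhibitory receptor, at 5.50 and 2.21 CPM against 58.8 and 62.7 CPM. Tnfsf10, which encodes the death ligand TRAIL, was at 26.6 and 24.4 CPM against 121 and 115 CPM. Cd69, Rgs1, Rgs2, Tcf7, Thy1 and Il21r of the same list were not called.

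Of 11 genes of early maturation, 3 were lower and 0 higher, with a median of -0.73. Ltb was at 132 and 84.2 CPM against 509.5 and 579 CPM, Cd7 at 551 and 419 CPM against 1177 and 1055 CPM, and Il7r was the third. In the male library 5 cells held 62.4% of the Cd7 UMIs, and 48 of 108 cells had any. Cd27, whose loss marks maturation in mouse NK cells, was at 57.7 and 93.0 CPM against 99.2 and 122 CPM and was not called. Within conventional NK cells most cells showed neither Cd27 nor Klrg1 after thinning: both were found in 0.760% of female and 2.80% of male cells, Cd27 alone in 6.46% and 2.80%, Klrg1 alone in 8.75% and 10.3%, and neither in 84.0% and 84.1%. Without thinning both were found in 3.01% and 9.26%. At this depth most cells could not be placed by this pair.

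Among 16 tested genes of the cytotoxic granule, 2 were higher and 2 lower, and the median log2 ratio was 0.24. Prf1 was at 844 and 1009.9 CPM against 248 and 337 CPM, ratios of 3.41 (3.05 to 3.82) and 3.00 (2.59 to 3.48). Gzma was at 10878 and 9942 CPM against 4502 and 3067 CPM, ratios of 2.42 (2.35 to 2.48) and 3.24 (3.09 to 3.40). Gzmb, the other abundant granzyme, did not follow them, with 939.7 and 875 CPM against 966 and 726 CPM and intervals of the ratio of 0.900 to 1.05 and 1.06 to 1.37. Gzmc went the other way, at 4.58 and 2.21 CPM against 193 and 48.1 CPM, although the male value in conventional NK cells came from 1 UMI, with an interval of the ratio from 0.00114 to 0.271. Nkg7, a granule membrane protein, was at 3499.7 and 3805 CPM against 2311 and 2485 CPM, and Fasl at 140.1 and 177 CPM against 107 and 92.9 CPM, both short of 2-fold. Gzma, Gzmb and Gzmc do not share 55-base stretches, the length of the cDNA read, with one another in the last 500 bases of their transcripts.

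The bases shown here lie before the start of Gzma, on the minus strand of chromosome 13. They were picked because Gzma was the most abundant transcript among the genes called higher. The stretch is chr13:113100999-113101058 of GRCm38.p6, as given by RefSeq, read 5′ to 3′ on the minus strand, and the capitals mark the letters AACCACA, a form of the Runx motif, which begin 51 bases before the annotated start.
Gzma: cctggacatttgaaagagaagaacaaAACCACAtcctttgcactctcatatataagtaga
Runx letters (TGTGGTT or AACCACA, on either strand) stood in the 250 bases before the start of 5.08% of 27025 promoters, of 3 of the 40 higher genes that had a promoter sequence (Gzma, Prr5l and Dhrs3) and of 5 of the 41 lower genes. T-box letters (TCACACC or GGTGTGA) stood in 3.84% of all, in 3 of the 40 (Itga4, Rap1gap2 and Cmah) and in 2 of the 41. KLF letters (CCACACCC or GGGTGTGG, which share CACACC with the T-box letters) stood in 3.68% of all, in 5 of the 40 (Itga4, Rap2b, Cmklr1, Emp3 and Klf12) and in 1 of the 41. Of the 5912 tested genes that had a promoter sequence, 3.96% had Runx letters, 3.11% T-box letters and 4.16% KLF letters. These matches are a description of letters in a window.

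Ly49 receptors are encoded side by side on chromosome 6, and each NK cell transcribes a subset of them. Klra4 and Klra8 chose the cells, and 5 other genes of the family passed the filter on counts. Of these, 3 were higher than in second-sum cells and 0 lower. Klra7 (Ly49G, an inhibitory receptor) was at 678 and 673 CPM against 262 and 208 CPM, with ratios of 2.59 (2.31 to 2.91) and 3.23 (2.69 to 3.90). Klra3 (Ly49C) was at 452 and 321 CPM against 149 and 132 CPM. Klra9 (Ly49I) was at 530.3 and 771 CPM against 257 and 325 CPM. Klra1 (Ly49A) stood at 171 and 73.1 CPM against 73.5 and 43.6 CPM and Klra5 at 19.2 and 6.64 CPM against 16.3 and 21.3 CPM, neither called.

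**Figure D3:**
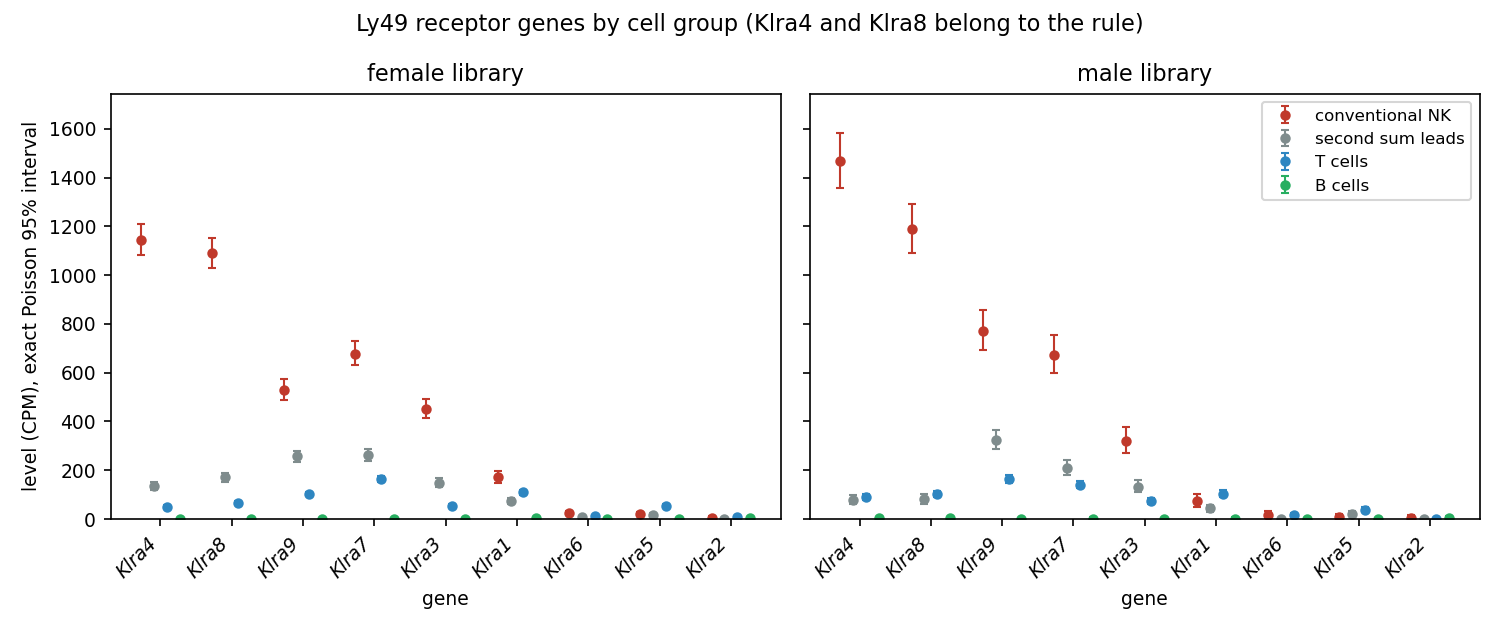
Level of 9 Ly49 genes in CPM with exact Poisson 95% intervals in conventional NK cells, gate cells where the second sum led, T cells and B cells, for each library. Klra4 and Klra8 were used by the rule; of the others, Klra7, Klra9 and Klra3 stood highest in conventional NK cells in both libraries, and B cells were at 2.76 CPM or less for Klra4 and Klra8.

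Ly49 genes are close relatives, and reads of 1 gene can be lost or lent to another. Of the 55-base windows in the last 500 bases of their transcripts, 96.4% occurred in no other gene of the family for Klra4, 91.0% for Klra8, 94.4% for Klra1, 80.6% for Klra7, 74.0% for Klra3 and 56.0% for Klra9. The levels of Klra9 and Klra3, which share 18.0% and 17.4% of their windows with each other, are therefore uncertain.

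After thinning, 47.1% of the conventional NK cells of females and 48.6% of those of males had UMIs of 1 Ly49 gene outside the rule, 24.0% and 25.2% had UMIs of 2 such genes, 6.08% and 4.67% of 3 or more, and 22.8% and 21.5% of 0. Among second-sum cells 64.9% and 62.3% had 0, among T cells 79.5% and 84.3%, and among B cells 98.0% and 98.8%. Without thinning the share of conventional NK cells with 0 was 4.51% and 5.56%. Single genes were found after thinning in 38.8% and 36.4% (Klra7), 34.2% and 44.9% (Klra9), 28.1% and 24.3% (Klra3) and 7.98% and 2.80% (Klra1) of cells. Klra4 and Klra8 helped to choose the cells, and a cell with neither had to pass on Itga2 and Eomes, so their shares describe the chosen cells and not NK cells at large. After thinning, Klra4 and Klra8 were both found in 24.7% and 29.0% of cells, and neither in 23.2% and 15.9%. Klra4 alone was found in 24.0% and 30.8%, and Klra8 alone in 28.1% and 24.3%. On the counts without thinning, which the rule used, 6.39% of female and 6.48% of male cells had neither. The share with both was then higher in each library than after thinning.

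The bases before the start of Klra4 are shown because Klra4 and Klra8, which chose the cells, and Klra7, which did not, have a shared stretch there. Capitals mark the 65 of 80 positions that are identical in all 3, read 5′ to 3′ on the minus strand of GRCm38.p6 as given by RefSeq, at chr6:130067272-130067351 for Klra4, chr6:130129900-130129979 for Klra8 and chr6:130233333-130233412 for Klra7.
Klra4: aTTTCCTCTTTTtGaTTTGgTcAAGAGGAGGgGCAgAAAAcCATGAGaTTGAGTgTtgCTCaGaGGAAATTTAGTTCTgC
Klra8: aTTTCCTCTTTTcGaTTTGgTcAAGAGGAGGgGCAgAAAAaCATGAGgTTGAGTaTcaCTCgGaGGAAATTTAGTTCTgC
Klra7: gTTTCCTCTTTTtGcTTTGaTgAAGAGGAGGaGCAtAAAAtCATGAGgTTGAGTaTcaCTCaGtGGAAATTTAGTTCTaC
The Klra8 stretch matched Klra4 at 73 of 80 positions (91.2%) and the Klra7 stretch at 67 (83.8%). Klra3, Klra9 and Klra1, of which the first 2 were also higher in conventional NK cells, had no stretch in the window that matched at more than 40% of positions.

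Lectin receptors of the NKG2 and NKR-P1 families and Klrg1 were mostly shared across the gate, with 1 of 10 tested genes higher (Klrg1), 2 lower and a median log2 ratio of 0.26. Klrc1, the inhibitory receptor NKG2A, was at 212 and 343 CPM against 542 and 728 CPM, and Klrb1b, the inhibitory NKR-P1B, at 89.8 and 142 CPM against 345 and 363 CPM. Klrc2 (NKG2C) was at 659 and 687 CPM against 526 and 562 CPM. Its transcript shares windows with Klrc1, and only 59.5% of the Klrc1 windows were found in no other gene of the family, so that the levels of the pair are uncertain. Klrd1 (CD94, the partner of both) and Klrk1 (NKG2D) were within 2-fold in both libraries.

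Receptor adaptors gave 1 gene higher and 1 lower of 17 tested, with a median of 0.28. Cd247, the zeta chain, was at 113 and 162 CPM against 35.2 and 45.9 CPM. Cd226, the activating receptor DNAM-1, was at 87.9 and 131 CPM against 317 and 379 CPM. Tyrobp (DAP12), the adaptor of Ly49D and Ly49H, was at 3706 and 3938 CPM against 2414 and 2238 CPM and Fcer1g at 3057 and 2941 CPM against 2548 and 2308 CPM, both under 2-fold.

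Of 20 transcription factors, 2 were higher (Zeb2 and Klf2) and 3 lower, and the median was 0.08. Ahr, the aryl hydrocarbon receptor, was at 19.2 and 17.7 CPM against 81.3 and 60.4 CPM, Ikzf2 at 16.5 and 13.3 CPM against 67.2 and 70.5 CPM, and Rora at 2.75 and 4.43 CPM against 31.5 and 50.4 CPM. Tbx21 (T-bet), on which both lineages depend, was at 125 and 151 CPM against 99.7 and 109.7 CPM. Irf8 reached 2-fold in the female library alone, at 471 and 396 CPM against 195 and 220.4 CPM.

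Of 14 receptors, 0 were higher and 2 lower: Il7r, and Il2ra at 0.916 and 0 CPM against 35.7 and 33.6 CPM. Il18rap was at 271 and 301 CPM against 124 and 160.0 CPM, with 2-fold reached in the female library alone. Il2rb, the chain that receives interleukin-15, was at 871 and 924 CPM against 928 and 1294 CPM. Of 10 cytokines and chemokines, 0 were higher and 2 lower, Ltb and Ccl1, and Ccl1 had 1 UMI in female and 0 in male conventional NK cells, against 26.2 and 236 CPM. Ccl5, the most abundant chemokine, was at 14893 and 13297 CPM against 9448 and 7993 CPM. Ifng was at 77.9 and 166 CPM against 92.9 and 99.6 CPM, with the ratio on different sides of 1 in the libraries.

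None of the tested genes of the glucocorticoid response (8), immediate early and heat shock (14), interferon-stimulated (8) or cell cycle (8) lists was called in this comparison, at a background of 0.667% higher and 0.762% lower over all genes, so a count of 0 in lists of this size does not set them apart. The glucocorticoid receptor Nr3c1 was at 79.7 and 88.6 CPM against 53.0 and 83.9 CPM and its target Tsc22d3 at 226 and 135 CPM against 174 and 106 CPM.

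Several of the leading genes belong to none of the lists. As3mt, an arsenic methyltransferase, was at 84.3 and 111 CPM against 10.5 and 11.2 CPM, and Borcs7 at 131 and 115 CPM against 24.7 and 25.7 CPM. They are neighbours on the plus strand of chromosome 19, with Borcs7 at chr19:46689906-46703382 and As3mt at chr19:46707458-46741099 (GRCm38), and their reads were not told apart here beyond the counts as deposited. Rac3 (42.1 and 31.0 CPM against 4.72 and 2.24 CPM), Rap1gap2 (58.6 and 33.2 CPM against 8.40 and 3.36 CPM) and Klf3 (119 and 126 CPM against 33.6 and 33.6 CPM) were among the 12 highest as well. On the lower side, the T cell receptor gamma constant gene Tcrg-C4 was at 11.9 and 0 CPM against 148 and 167 CPM. In the male library that is 25.1-fold lower with the 0 set to 3 counts, and the interval of the ratio ended at 0.0496. Gm36723 (72.4 and 64.2 CPM against 481 and 514 CPM), St6galnac3 (4.58 and 2.21 CPM against 57.7 and 55.9 CPM) and Serpina3f (5.50 and 11.1 CPM against 83.4 and 76.1 CPM) were lower as well.

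Conventional NK cells were also described by their second sum, which the rule had used to choose them, so that the values are a description and support nothing. Those with a second sum of 0 (127 female and 51 male cells) were set beside those with a second sum of 1 or more (139 and 57). Gzma was at 15107 and 14030.2 CPM in the former and 8385 and 7445 CPM in the latter, ratios of 1.80 (1.74 to 1.87) and 1.88 (1.78 to 2.00). Cma1 was 4.01-fold (2.95 to 5.52) and 3.60-fold (2.31 to 5.75) higher, Zeb2 2.65-fold (2.20 to 3.20) and 2.98-fold (2.22 to 4.03), Klf2 2.08-fold (1.83 to 2.37) and 2.43-fold (1.93 to 3.07), and Klrg1 3.24-fold (2.24 to 4.76) and 2.13-fold (1.29 to 3.55). Cd7 was lower, at 0.287 (0.226 to 0.360) and 0.309 (0.202 to 0.459) of the level in the cells with a second sum of 1 or more. Not all genes followed: Eomes had ratios of 0.998 and 0.996, and Gzmb 1.23 and 1.06, where the intervals of Eomes included 1 in both libraries. Klra7, which was higher in conventional NK cells than in second-sum cells, was lower at a second sum of 0, with a female ratio of 0.860, whose interval reached 1, and a male ratio of 0.646 (0.497 to 0.833).

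A sum of 0 is likelier in a shallow cell. The median depth was 2960 UMIs (female) and 2974 UMIs (male) at a sum of 0, and 4224 and 4670 UMIs at a sum of 1 or more. Among cells of 2000 to 6000 UMIs (107 and 98 female, 45 and 43 male), the medians were 3020 and 3149 UMIs at a sum of 0, and 3759 and 4396 UMIs otherwise, so depth was still not equal. There the ratios of Gzma, Cma1, Zeb2, Klf2 and Cd7 lay closer to 1 but kept their direction. Gzma had ratios of 1.58 (1.51 to 1.64) and 1.64 (1.54 to 1.75), and Cma1 2.29 (1.67 to 3.19) and 2.73 (1.73 to 4.42). Zeb2 had 2.06 (1.67 to 2.54) and 2.54 (1.84 to 3.54), and Klf2 1.48 (1.28 to 1.71) and 2.11 (1.65 to 2.72). For Cd7 they were 0.589 (0.444 to 0.777) and 0.454 (0.280 to 0.717). For Prf1 the ratio was 1.21 (1.04 to 1.40) and 1.18 (0.959 to 1.44), and the male intervals of Prf1, S1pr5 and Itgam included 1. Klra7 had ratios of 0.916 (0.764 to 1.10) and 0.646 (0.484 to 0.855).

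Past the border, the second-sum cells with a first sum of 2 or more (111 and 34) lay between the conventional NK cells and the second-sum cells with a first sum of 0 or 1 (263 and 120) for many of the same genes. Prf1 was at 345 and 631 CPM in the former and 191 and 242 CPM in the latter, and Gzma at 5679 and 6653 CPM and 3821 and 1917 CPM. These sets, too, were cut by the sums of the rule.

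**Figure D4:**
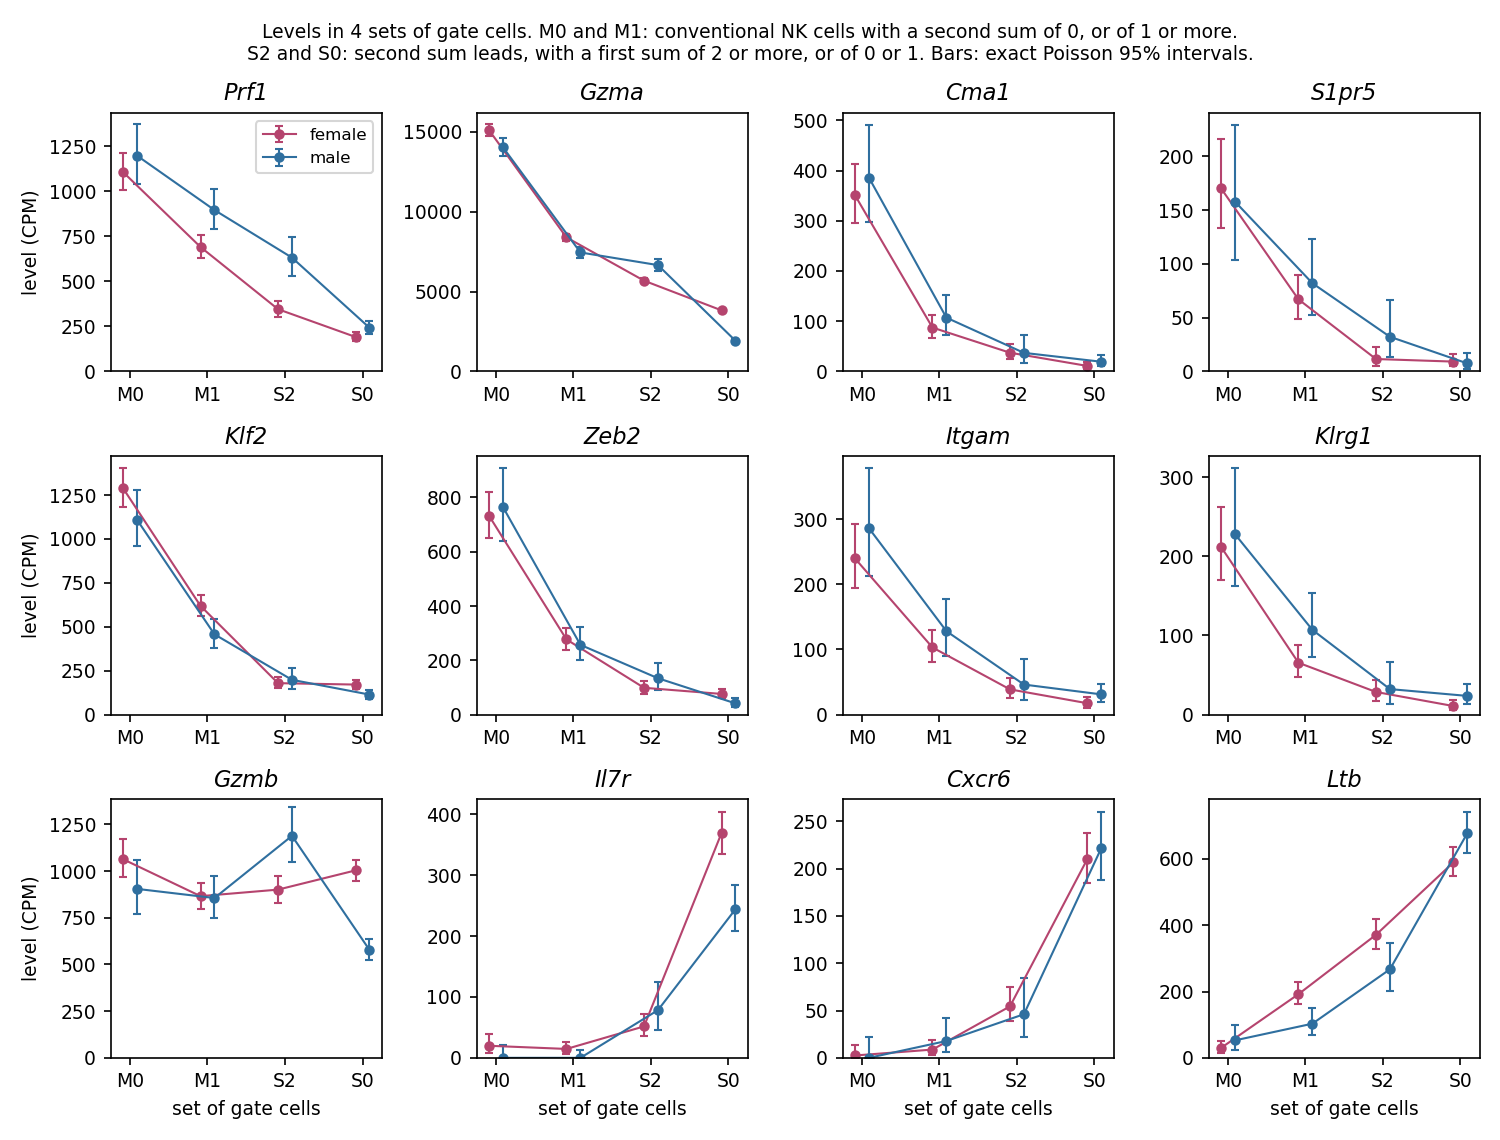
Level in CPM of 12 genes outside the rule in 4 sets of gate cells, conventional NK cells with a second sum of 0 (M0) or of 1 or more (M1) and gate cells where the second sum led with a first sum of 2 or more (S2) or of 0 or 1 (S0), for the female and male library with exact Poisson 95% intervals. Prf1, Gzma, Cma1, Klf2 and Zeb2 were highest in M0, Il7r, Cxcr6 and Ltb were highest in S0, and Gzmb showed no common order.

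T cells were the other comparison, and the exclusion of Cd3 transcripts is again part of the rule. Of 8913 genes, 156 were called higher in conventional NK cells (1.75%) and 161 lower (1.81%), with a median log2 ratio of 0.08. The T cell group was mixed: 39.0% of the female and 34.0% of the male T cells themselves had 2 or more UMIs of the gate genes, and 52.6% and 56.8% had 0. Ccl3, a chemokine of activated NK cells and macrophages, was at 517 and 939 CPM against 26.7 and 57.8 CPM, ratios of 19.3 (15.9 to 23.7) and 16.2 (13.3 to 20.0). Ccl4 was at 1172 and 1925 CPM against 196 and 309 CPM, and neither chemokine was called against second-sum cells. Both levels were carried by few cells, with 51.1% of the female and 63.0% of the male Ccl3 UMIs, and 40.2% and 62.7% of the Ccl4 UMIs, in the 5 leading cells. Prf1, Cma1, Khdc1a, Itgam and S1pr5 were the other genes that led, with Khdc1a at 108 and 146 CPM against 2.15 and 5.60 CPM.

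Of the 10 tested genes of the NKG2 and NKR-P1 list, 7 were higher than in T cells and 0 lower, with a median log2 ratio of 1.69. Klrk1 was at 1212 and 1382 CPM against 369 and 354 CPM, Klrd1 at 1756 and 1803 CPM against 676 and 623 CPM, and Klri2 at 439.6 and 372 CPM against 69.3 and 43.4 CPM. Tyrobp was at 3706 and 3938 CPM against 772 and 687 CPM. Of 17 granule genes 7 were higher and 2 lower, and of 15 late maturation genes 10 were higher and 0 lower. Irf8 was at 471 and 396 CPM against 60.3 and 48.5 CPM, and Serpinb9, which shields killer cells from granzyme B, at 472 and 429.7 CPM against 87.4 and 69.0 CPM. Il18rap and Il18r1, the chains of the interleukin-18 receptor, were the 2 cytokine receptors called higher, with 271 and 301 CPM against 61.6 and 57.4 CPM and with 193 and 239 CPM against 60.7 and 76.9 CPM.

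Lower than in T cells were all 10 genes of the T cell list. Cd8b1 had 0 UMIs in conventional NK cells of both libraries, at least 99.5-fold and 35.8-fold lower, and Dapl1 had 0 UMIs as well, at least 49.1-fold and 19.2-fold lower. Trac, the T cell receptor alpha constant gene, was at 20.1 and 8.86 CPM against 516 and 493 CPM. Il7r was at 16.5 and 0 CPM against 458 and 284 CPM, Cxcr6 at 6.41 and 11.1 CPM against 254 and 359 CPM, and Ly6a at 6.41 and 2.21 CPM against 275 and 307 CPM. Of the 20 genes of tissue residency and ILC1, 16 were lower than in T cells and 0 higher. Ccr7 and S1pr1, which guide T cells through lymph nodes, were also lower, Ccr7 at 0 and 2.21 CPM against 82.5 and 72.3 CPM and S1pr1 at 18.3 and 28.8 CPM against 121 and 97.0 CPM. Klra5 was the 1 Ly49 gene called lower, at 19.2 and 6.64 CPM against 53.6 and 38.7 CPM.

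Between female and male conventional NK cells few genes differed by 2-fold. With the sex-linked genes apart, 23 of 4273 genes were called higher in the female (0.538%) and 13 lower (0.304%), with a median log2 ratio of -0.06. When ratios were taken relative to that median the counts were 31 and 6. Prf1, at 844 and 1009.9 CPM, and Gzma, at 10878 and 9942 CPM, were not among them. Of the lists, cytotoxic granule (13 tested), late maturation (15), transcription factors (17), adaptors (16) and NKG2 and NKR-P1 receptors (9) had 0 genes called in either direction. At a background of 0.538% higher and 0.304% lower over all genes, a count of 0 in lists of this size does not set them apart. Gzmb was at 939.7 and 875 CPM (ratio 1.07, 0.956 to 1.21), and Klrk1 at 1212 and 1382 CPM (0.877, 0.797 to 0.966).

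Most of the genes called higher in females rested on a handful of cells. In 13 of the 23, the 5 leading female cells held more than 50% of the female UMIs. In 3 of the 13 lower genes, the 5 leading male cells held more than 50% of the male UMIs. The haemoglobin genes Hbb-bs, Hba-a1, Hba-a2 and Hbb-bt led the list, and 1 female cell held 3546 of their 3549 UMIs. Lyz2, a myeloid gene, was at 368 and 55.4 CPM, with 131 of its 402 female UMIs in 1 cell and 73.6% in 5. Chil3, Ifitm3 and Plac8, other genes high in myeloid cells, had 94.0%, 77.7% and 81.5% of their female UMIs in 5 cells. In B cells, the background for free RNA, Lyz2 (707 against 193 CPM), Chil3 (53.0 against 0 CPM) and Ifitm3 (186 against 64.8 CPM) were also higher in the female library. Plac8 was at 1922 and 1455 CPM in B cells, which are thus no background for it. The list of macrophage markers summed to 910.4 CPM in female and 412 CPM in male cells, but this sum includes Lyz2 itself. Lyz2 was the 1 gene called of the 4 tested on that list. Apoe (271 and 153 CPM) and Cd74 (131 and 81.9 CPM) were higher in females and H2-Aa (81.5 and 90.8 CPM) lower, all under 2-fold. The part of macrophage markers and of free RNA in the differences was not tested.

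Pclaf, Stmn1 and Top2a, the 3 genes of the cell cycle list with enough UMIs, were all called higher in females, at 52.2, 144 and 57.7 CPM against 4.43, 26.6 and 8.86 CPM. Mcm3 and Cks2, which act in replication and division and are outside that list, were called higher too, with 48 female against 3 male UMIs of Mcm3 and 58 against 7 of Cks2. Cells with 5 or more UMIs of Mki67, Top2a, Pclaf, Birc5 and Stmn1 were 7 of 266 in the female library (2.63%, 1.06 to 5.35) and 0 of 108 in the male, which allows a share of up to 3.36%. The difference between these shares was not tested.

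Klra1 was the 1 Ly49 gene among the 23, at 171 CPM in female and 73.1 CPM in male cells (ratio 2.34, 1.61 to 3.50). The 5 leading cells accounted for 35.3% of Klra1 UMIs in females and 69.7% in males. After thinning, 7.98% (5.01 to 11.9) of female and 2.80% (0.582 to 7.98) of male cells had a UMI of it, and the intervals overlap. Its log2 ratio was 1.13 in conventional NK cells, 0.64 in second-sum cells and 0.07 in T cells. Ddit4, a glucocorticoid-induced gene, was at 73.3 and 31.0 CPM, with a log2 ratio of 1.02, and of 1.09 in second-sum cells. Of the 23 genes, 7 were 2-fold or more higher in females in second-sum cells too.

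Lower in female cells were Fosb (29.3 and 97.4 CPM), Cxcr3 (35.7 and 111 CPM), Nr4a2 (25.6 and 70.9 CPM), Dusp7 (21.1 and 59.8 CPM), Camk2n1 (88.8 and 210.4 CPM), Bid (25.6 and 64.2 CPM), Fosl2 and Fbxo28 (30.2 and 73.1 CPM each), together with Ifng (77.9 and 166 CPM) and Emb (75.1 and 162 CPM). Cxcr3, a receptor for interferon-induced chemokines, had a UMI after thinning in 7 of 263 female cells (2.66%, 1.08 to 5.41) and 10 of 107 male cells (9.35%, 4.57 to 16.5). Fosb and Nr4a2, immediate early genes, had 59.1% and 68.8% of their male UMIs in 5 cells. Of the 13 genes, 1 (Nr4a2) was 2-fold lower in second-sum cells as well. In cells of 2000 to 6000 UMIs, 1 of the 23 higher and 3 of the 13 lower genes were called again. With Cd3 and C1q sums of 0, 8 and 6 were called again, and with Itga2 and Eomes alone as the first sum, 11 and 1. Animal, library and sex cannot be told apart in these differences.

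**Figure D5:**
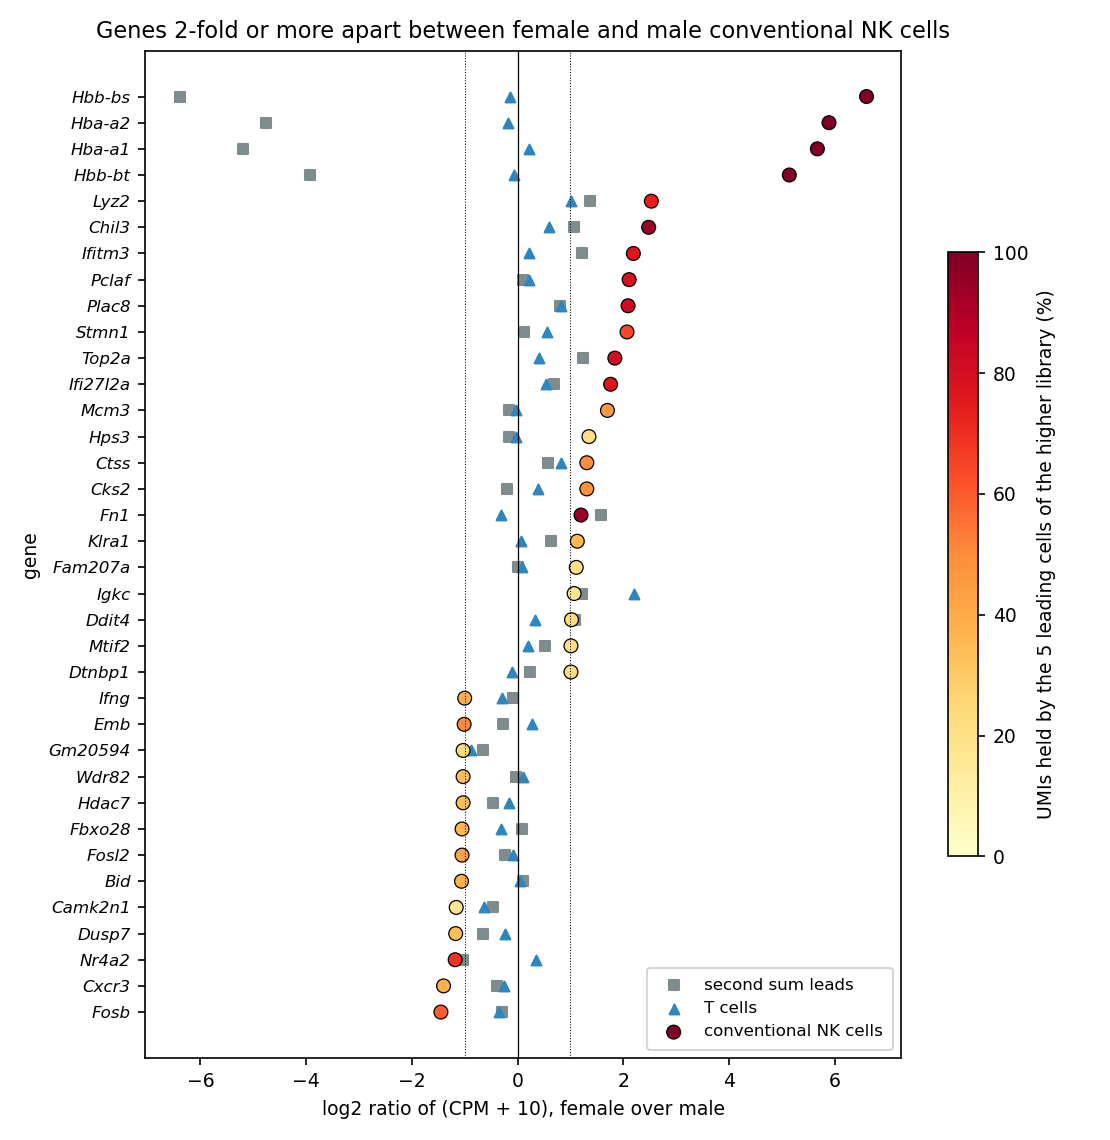
Log2 ratio of (CPM + 10), female over male, of the 36 genes 2-fold or more apart in conventional NK cells (circles, coloured by the percentage of UMIs held by the 5 leading cells of the higher library), with the same ratio in gate cells where the second sum led (squares) and in T cells (triangles). The 4 haemoglobin genes lie on opposite sides in the 2 groups of gate cells, and the darkest circles are among the genes higher in females.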

How the data were processed

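Cells were live CD45+ cells on Chromium 3′ chemistry 3.1. The authors aligned and counted reads with Cell Ranger 4.0.0 and removed noise barcodes with DropletUtils 1.4.3, and the deposited values are raw UMI counts per gene and barcode. The build named in the submitters' processing notes is mm10 and the counting annotation is not given in the sources used here. Positions came from GENCODE on GRCm38 and promoters from RefSeq. The mitochondrial ceiling of 15% is the rule's. A ceiling of 1.2%, which the study's methods state, was tried as an alternative and left few barcodes, and whether that value is on the same scale could not be settled. The rule, its members and all gene lists were chosen with earlier results of these data known.

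Counts were summed per library and group, and ratios of (CPM + 10) were taken among genes with 50 UMIs or more. Intervals are Poisson (CPM), Clopper-Pearson (shares), Newcombe (differences of shares) and conditional binomial (ratios). Shares were taken after drawing 1000 UMIs per cell without replacement, and a draw of 2000 was tried. Named genes were the 12 leading genes per direction by the smaller ratio of both libraries against second-sum cells, 6 against T cells, 8 between sexes, and the lists. A gene that this rule names is not reported here. Genes named otherwise were chosen after their values were seen. Doublets were not removed in the main analysis, beyond what the gate excludes, and were scored with Scrublet in scanpy 1.11.5 as an alternative. Python 3.11.15, numpy 2.4.6, scipy 1.17.1 and pandas 2.3.3 were used. With 1 library per sex there was no test.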

Additional observations from a re-analysis of the deposited data

Results flagged for a closer look

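The 4 haemoglobin genes had sex ratios of opposite sign in the 2 groups of gate cells. On the log2 scale, female over male, Hbb-bs was at 6.60 in conventional NK cells and -6.39 in second-sum cells, Hba-a2 at 5.89 and -4.76, Hba-a1 at 5.67 and -5.19, and Hbb-bt at 5.14 and -3.93. The difference was not tested. In the female conventional NK cells 1 cell, with 7354 UMIs in all, held 3546 of the 3549 haemoglobin UMIs, and in the male second-sum cells 1 cell, with 5779 UMIs, held 1937 of 1943. Hba-a1 and Hba-a2 share most of their sequence, with 9.87% and 12.7% of windows found in no other gene of the family, so that their counts cannot be told apart with confidence.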

How the results depend on the processing

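No paired analysis was possible because there was 1 library per sex and the labels give no replicate numbers. Over the named genes, where they could be compared, 549 values stayed within their interval, widened where needed to hold the main value, and 106 moved. Changes of direction numbered 0, but against second-sum and T cells one was counted only when both libraries changed sign. A change in 1 library alone was not counted there. Shares of cells with a UMI depended on depth: over Prf1, Gzma, Klrg1 and Cd27, 11 values left their interval and 5 stayed within it when 2000 UMIs were drawn or cells were not thinned. With 2000 UMIs, the female and male shares were 70.4% and 75.5% for Prf1, 22.7% and 17.6% for Klrg1, 12.6% and 18.6% for Cd27 and 91.5% and 93.1% for Gzma. A mitochondrial ceiling of 1.2% left 2.14% of female and 0.836% of male barcodes as conventional NK cells (difference 1.31 points), or 70.0% and 50% of the gate (difference 20.0), and only 144, 512 and 106 genes to compare: 13 higher and 9 lower than in second-sum cells, 42 and 59 against T cells, and 0 lower in females. A ceiling of 5% gave 8.34% of female barcodes. With Cd3 and C1q sums of 0 the shares were 5.00% and 3.12%. With Itga2 and Eomes alone they were 3.77% and 2.44% (difference 1.33), or 21.3% and 22.2% of the gate. With 1 CPM added, 76 genes were higher and 104 lower than in second-sum cells, 262 and 379 against T cells, and 44 and 27 between sexes. With 200 UMIs per gene the counts were 28 and 28 against second-sum cells and 6 and 0 between sexes, and with no filter 108 and 56 between sexes. In cells of 2000 to 6000 UMIs, 39 of the 49 higher and 47 of the 56 lower genes were called again against second-sum cells, but between sexes 12 and 7 genes were called, of which 1 and 3 were among those reported. Relative to the median, 6 genes were lower in females. Of 3 alternatives chosen after seeing the data, cells clear of the border gave 94 lower genes, T cells without gate genes 276 higher genes, and genes not carried by 5 cells 10 higher in females. Removing the highest Scrublet scores took out 5 female and 0 male conventional NK cells. Levels under 2.75 CPM in female and 6.64 CPM in male cells rest on fewer than 3 counts.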
